A study of Xenopus tropicalis with 16 samples.

Results

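Livers of female Xenopus tropicalis, the tropical clawed frog, exposed to benzo[a]pyrene (BaP) were compared with livers of females exposed to triclosan. The members were chosen by the treatment label alone: 4 BaP and 4 triclosan libraries, so 8 of the 16 libraries of the series. The other libraries were 4 from animals exposed to a mixture and 4 from unexposed animals. All groups shared sex and tissue, and the labels describe the samples as biological replicates. The series title calls the exposures chronic; the sources used here give no doses, durations or ages, and do not say what the mixture held. Differences below are therefore between these groups at doses that may not match, and they do not compare potency. Each liver sample gave a stranded poly(A) RNA-seq library, and the deposited value is a gene's FPKM, its fragment count scaled to transcript length and library size. Of 19921 genes in each table, 6315 had an FPKM of at least 1 in 4 or more of the 8 libraries and were tested.

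BaP is a polycyclic aromatic hydrocarbon formed by incomplete combustion. It binds the aryl hydrocarbon receptor (AhR), a transcription factor that switches on cytochromes of the CYP1 family, and these enzymes turn BaP into metabolites that bind DNA. Triclosan is a chlorinated phenol used as an antibacterial agent; the liver conjugates it to glucuronic acid or sulphate, and it has been studied as a disruptor of thyroid hormone signalling. The liver makes most plasma proteins, among them the carriers of thyroid hormone and retinol, the clotting and complement factors and, in egg-laying females, the yolk precursor vitellogenin.

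The libraries were alike in depth and in the number of genes seen. Depth, read from the widths of the Cufflinks intervals, was 11 to 17.1 M fragments (M, mega) in BaP libraries and 11.3 to 15.1 M in triclosan libraries. BaP libraries listed 12283 to 13378 genes above 0, and triclosan libraries 12762 to 13379. The defining hepatocyte genes were abundant in all 8: fgb, a fibrinogen chain, had 499.6 to 2019.5 FPKM in BaP libraries and 669 to 2180.4 in triclosan libraries. The estimate for alb, the albumin gene, was deposited as too deep to estimate in every library and could not be used. Defining genes of pancreas and vessel lining were near 0, except for prss1, a pancreatic trypsin, which reached 15.2 FPKM in triclosan replicate 2. Other pancreas genes highest there among the 8 libraries were cela2a, cela3b, ctrb2, prss3 and cpa1, at 0.766 to 4.61 FPKM. The pancreas genes cel, CLPS, ctrb1, pdia2 and amy2a were highest in other libraries, and amy2a had 42.4 to 155 FPKM across the 8. BaP replicates 3 and 4 stood apart from replicates 1 and 2. Mitochondrially encoded genes took 21.3% and 19.9% of the summed FPKM in replicates 3 and 4, against 10.5% and 12.1% in replicates 1 and 2, and 6.99% to 12.7% in the triclosan libraries. Ribosomal RNA genes, mitochondrial ones included, took 2.11% and 3.45% in BaP replicates 3 and 4 and at most 1.79% in the other 6 libraries. How much of this share was mitochondrial was not tested. These shares leave out estimates deposited as too deep, which were those of alb, of hba1 and hbg1 in many libraries, of COX1 in BaP replicates 3 and 4 and of COX3 in BaP replicate 4. The values of single genes above and below are FPKM rescaled between libraries. Values listed one by one are in the order of the replicate numbers. Differences are BaP minus triclosan on the log2(rescaled FPKM + 1) scale with their standard error (SE), tested with limma and Benjamini-Hochberg adjustment over the 6315 genes. On this scale differences of genes near 1 FPKM are understated. A gene said to rise or fall below was higher or lower in BaP than in triclosan livers, which says nothing about unexposed livers.

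Few genes passed the test between the exposures. At an adjusted p below 0.05, 19 genes were called, 0.301% of those tested, of which 12 were higher in BaP livers (0.19%) and 7 lower (0.111%). In all 19 the 4 BaP values lay wholly above or wholly below the 4 triclosan values, which held for 423 of the 6315 genes (6.7%). The calls were made on these same values, so this separation is a description and no further support. The called differences ran from 0.80 to 3.63 in size, and the median difference over all tested genes was 0.02. A further 42 genes, 27 higher and 15 lower, had an adjusted p between 0.05 and 0.1. In this limma fit 907 genes (14.4%) had an unadjusted p below 0.05, where about 316 are expected if no gene differs. A small number of calls with 4 libraries a group is therefore not a measure of how alike the livers were. The number of calls depended on single libraries: it was 60 without BaP replicate 3, 12 without BaP replicate 1, 2 without BaP replicate 2, 2 without BaP replicate 4, 1 without triclosan replicate 1, 1 without triclosan replicate 2, 5 without triclosan replicate 3 and 11 without triclosan replicate 4. Every called gene kept its direction in these fits, as it must where the groups do not overlap, so this is no support. Only nfix was called in all 8 of them. nfix reached 1 FPKM in triclosan libraries alone, and the genes tested were not chosen anew in these fits. Its calls in them are thus no support. hpgd was called in 6, jarid2 and kdm6b in 4, and the other 15 in 3 or fewer. The limma fit over the 8 compared libraries alone, in place of all 16, called 1 gene and none of the 19, with 734 genes at an unadjusted p below 0.05.

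**Figure D1:**
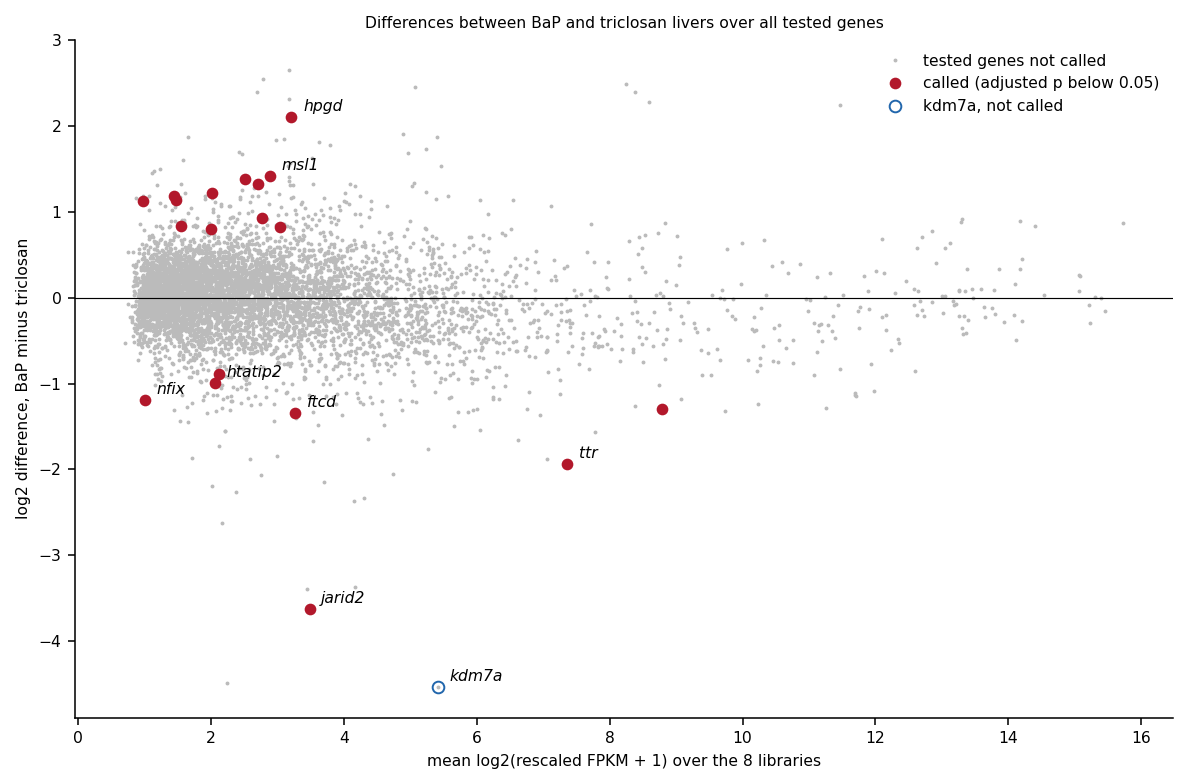
Log2 difference of BaP minus triclosan livers (vertical) against the mean log2(rescaled FPKM + 1) over the 8 libraries (horizontal) for the 6315 tested genes; red points are the 19 called genes and the open circle is kdm7a, which was not called. Most genes lie near 0, and jarid2 is the called gene with the largest difference in size.

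The called genes with the clearest known roles in liver were those of hormone transport and prostaglandin breakdown. hpgd encodes the dehydrogenase that begins the inactivation of prostaglandins. It had 15.3, 36.7, 14.5 and 13.3 FPKM in BaP livers, against 2.27, 3.82, 4.17 and 3.8 in triclosan livers. All 4 BaP values were above every triclosan value, and BaP replicate 2 stood above the other 3. hpgd rose in BaP livers by 2.11 ± 0.31 (SE; adjusted p = 0.0122), a 5.68-fold ratio of means. The call was lost without triclosan replicate 1 (adjusted p = 0.0755) and without triclosan replicate 2 (adjusted p = 0.0518).

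ttr encodes transthyretin, the plasma carrier that binds thyroid hormone and the retinol carrier rbp4. It had 169, 49.3, 80.1 and 71.2 FPKM in BaP livers, against 367, 297, 369.5 and 262 in triclosan livers. The groups did not overlap, and the highest BaP value, in replicate 1, was below the lowest triclosan value. ttr fell by 1.93 ± 0.39 on the log2 scale in BaP livers (adjusted p = 0.0491), so that triclosan livers held 3.5 times as much. Of the fits that left out a library, ttr was called only in the fit without BaP replicate 1. rbp4, the plasma retinol carrier, had 1339, 1444, 449 and 436 FPKM in BaP livers and 2802, 1549, 3022 and 904 in triclosan livers; BaP replicates 3 and 4 were the lowest of the 8, the groups overlapped, and the difference of -1.24 ± 0.45 was not called (adjusted p = 0.243).

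Several called genes encode proteins that write, read or remove marks on chromatin. jarid2, a cofactor of Polycomb repressive complexes, had 1.33, 0.994, 14.6 and 0.413 FPKM in BaP livers, against 52.4, 46.1, 22.1 and 40.1 in triclosan livers. BaP replicate 3 stood high among the BaP libraries and triclosan replicate 3 low among the triclosan libraries, yet the groups did not overlap. jarid2 fell by 3.63 ± 0.54 on the log2 scale (adjusted p = 0.0122) and was the largest called difference. Its call was lost without BaP replicate 2, BaP replicate 4, triclosan replicate 1 or triclosan replicate 2, with adjusted p from 0.0518 to 0.0755. kdm7a, a histone demethylase, had 9.61, 1.96, 157 and 0.234 FPKM in BaP livers, against 257, 292, 101 and 229 in triclosan livers. Here BaP replicate 3 lay above triclosan replicate 3, so the groups overlapped, while the other 3 BaP values were below every triclosan value. The difference of -4.54 ± 1.01 was not called (adjusted p = 0.0629). Without BaP replicate 3 it was -5.92 and called (adjusted p = 0.000145). That library made the groups overlap, and 60 genes were called without it, so this call is no support. Calls of the genes below in the fit without that replicate are no support either.

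kdm6b, a demethylase that removes Polycomb's methyl mark from histones, had 3.47, 4.22, 1.69 and 3.54 FPKM in BaP livers, against 0.497, 1.01, 1.15 and 0.653 in triclosan livers. All BaP values were above the triclosan values, with BaP replicate 3 the lowest of its group. kdm6b rose by 1.18 ± 0.19 (adjusted p = 0.0207), and its call was lost without BaP replicate 2 or 4 or triclosan replicate 1 or 2, with adjusted p from 0.0518 to 0.107. msl1, the scaffold of a histone acetyltransferase complex, had 9.97, 18, 6.64 and 12.7 FPKM in BaP livers, against 3.03, 3.27, 3.65 and 4.28 in triclosan livers. BaP replicate 3 was again the lowest of its group and still above all triclosan values. msl1 rose by 1.42 ± 0.25 (adjusted p = 0.039). mllt10, a cofactor of a histone methyltransferase, had 2.2 to 3.92 FPKM in BaP livers and 1.11 to 1.33 in triclosan livers, and rose by 0.83 ± 0.16 (adjusted p = 0.0462). WHSC1L1, the histone methyltransferase listed by RefSeq as nsd3, had 7.14, 5.54, 7.63 and 14.8 FPKM in BaP livers, against 2.36, 2.72, 2.64 and 2.38 in triclosan livers. BaP replicate 4 was the highest of its group, and the triclosan values lay close together. WHSC1L1 rose by 1.39 ± 0.26 (adjusted p = 0.0462).

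Of 112 genes on the list of chromatin modifiers 64 were tested, and 43 of these lay above 0 and 21 below, with a median of 0.13; over all tested genes 52.4% lay above 0. The list held 3 called genes that rose (kdm6b, msl1 and mllt10) and 1 that fell (jarid2), beside a background of 0.301% called. This list, like those below, was chosen with earlier results of these data known, so its counts are a description. At so low a background, a list below without a called gene is no result about its members. WHSC1L1 was not on it. dek, a chromatin-bound protein, had 23.7, 27.4, 29 and 44.6 FPKM in BaP livers, against 13.1, 12.7, 12.7 and 15.1 in triclosan livers. Its groups did not overlap, and its difference of 1.13 ± 0.23 missed the threshold (adjusted p = 0.0502). nfix, a transcription factor of the nuclear factor I family, had 0.266, 0.674, 0.204 and 0.239 FPKM in BaP livers, against 3.28, 1.44, 1.82 and 1.87 in triclosan livers. All BaP values were below 1 FPKM and all triclosan values above it. nfix fell by 1.19 ± 0.16 on the log2 scale (adjusted p = 0.0122), which understates its ratio, since triclosan livers held 6.08 times as much on average.

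**Figure D2:**
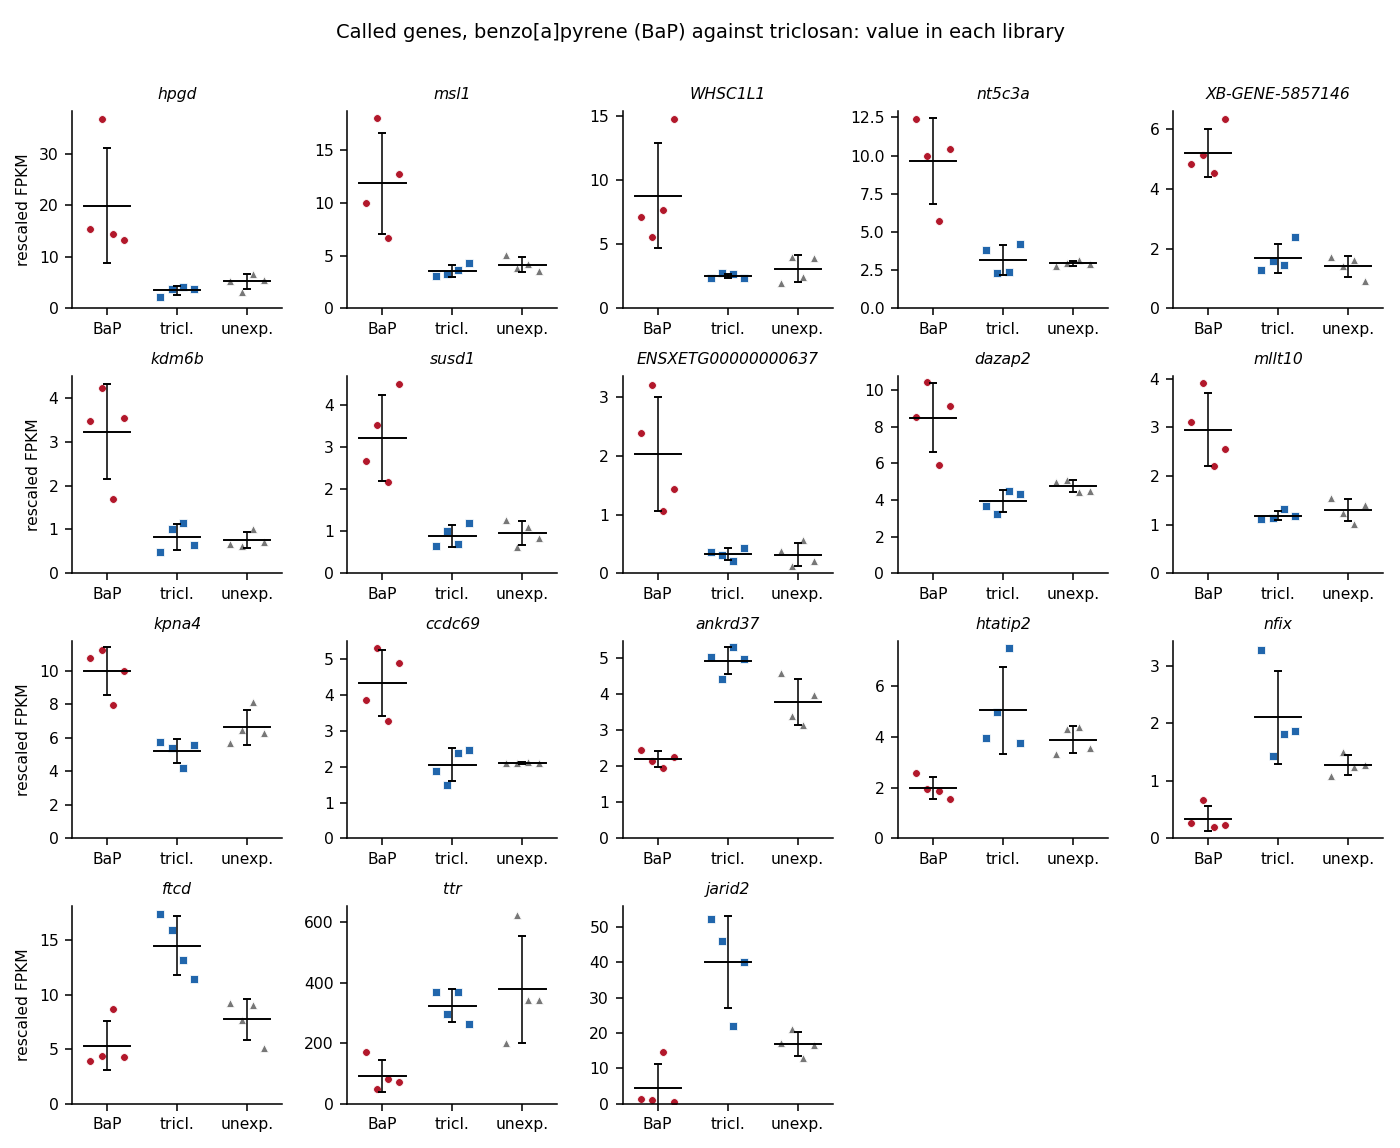
Rescaled FPKM of 18 of the 19 called genes in each BaP, triclosan (tricl.) and unexposed (unexp.) library, ordered from the highest to the lowest log2 difference; points are libraries in the order of their replicate numbers, lines and bars are the mean ± SD of 4, and axes start at 0, where bars that would go lower end. In every panel the BaP points lie wholly above or wholly below the triclosan points, which are the values the genes were called on.

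ftcd was lower in BaP than in triclosan livers, and most tested genes of its list lay on the same side of 0. Its enzyme carries out the last steps of histidine breakdown and passes the released formimino group to folate. ftcd had 3.88, 4.41, 8.69 and 4.28 FPKM in BaP livers, against 17.4, 16, 13.1 and 11.5 in triclosan livers. BaP replicate 3 stood above the other BaP libraries and below all triclosan libraries. ftcd fell by 1.34 ± 0.26 on the log2 scale (adjusted p = 0.0462). prodh2, which begins the breakdown of hydroxyproline, had 7.66, 7.72, 5.65 and 2.97 FPKM in BaP livers, against 10.6, 13, 18 and 15.4 in triclosan livers. The groups did not overlap, and the difference of -1.16 ± 0.24 just missed the threshold (adjusted p = 0.0502). Both are on the list of amino acid catabolism and urea cycle genes, of which 70 were tested, 43 lay below 0 and 27 above, the median was -0.12 and ftcd alone was called. htatip2, an oxidoreductase-like protein, had 2.57, 1.96, 1.85 and 1.54 FPKM in BaP livers, against 3.96, 4.96, 7.47 and 3.75 in triclosan livers, without overlap. It fell by 0.99 ± 0.19 on the log2 scale (adjusted p = 0.0462). nmrk2, a kinase that feeds nicotinamide riboside into the making of NAD, had 86.7, 117, 76.7 and 52.7 FPKM in BaP livers, against 17.9, 28, 18.3 and 21.4 in triclosan livers. Every BaP value was above every triclosan value, but the difference of 1.88 ± 0.40 was not called (adjusted p = 0.0629).

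The remaining called genes have more general roles or none known for certain in liver. kpna4, an importin that carries proteins into the nucleus, had 7.97 to 11.2 FPKM in BaP livers and 4.17 to 5.75 in triclosan livers and rose by 0.82 ± 0.16 (adjusted p = 0.0462); its locus overlaps that of a small RNA gene, SCARNA7. dazap2, a small proline-rich adaptor protein, had 5.91 to 10.4 FPKM in BaP livers and 3.24 to 4.51 in triclosan livers and rose by 0.93 ± 0.19 (adjusted p = 0.0491). XB-GENE-5857146, for which the files and tables give no name, had 4.83, 5.13, 4.54 and 6.36 FPKM in BaP livers, against 1.29, 1.58, 1.46 and 2.38 in triclosan livers. It rose by 1.22 ± 0.20 (adjusted p = 0.0266), and its locus lies on the same scaffold as ftcd, which fell. ankrd37, an ankyrin repeat protein, had 1.95 to 2.47 FPKM in BaP livers and 4.42 to 5.32 in triclosan livers and fell by 0.89 ± 0.17 on the log2 scale (adjusted p = 0.0462); it was called in none of the 8 fits that left out a library. susd1, ccdc69 and the gene without a symbol ENSXETG00000000637 rose by 1.14 ± 0.22, 0.80 ± 0.16 and 1.13 ± 0.20, with adjusted p of 0.0462, 0.0491 and 0.0451. These 3 genes, nfix, kdm6b, mllt10 and ankrd37 fall outside the naming rule and were named after their values were seen. Among genes just past the threshold, ptpn2, a tyrosine phosphatase that dampens cytokine signals, had 6.51 to 13.5 FPKM in BaP livers and 1.9 to 3.69 in triclosan livers (difference 1.19 ± 0.25, adjusted p = 0.0502). tmem57 had 14.7 to 34.6 FPKM in BaP livers and 43.8 to 60.3 in triclosan livers (difference -1.21 ± 0.25, adjusted p = 0.0502). plat, the tissue plasminogen activator, had 7.49 to 13.8 FPKM in BaP livers and 3.8 to 6.37 in triclosan livers (difference 1.06 ± 0.22, adjusted p = 0.0538). All 3 had groups that did not overlap.

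The unexposed livers show on which side a called difference lay. BaP livers did not overlap the unexposed livers in 16 of the 19 called genes, where 8.25% of tested genes have that separation; triclosan livers did not overlap them in 2 of the 19, where 2.8% do. These counts share the BaP and triclosan libraries with the calls, which chose genes that separate those groups, so they are a description. hpgd had 5.37, 3.25, 6.69 and 5.57 FPKM in unexposed livers, so that its unexposed values were near the triclosan values. kdm6b had 0.675, 0.614, 1.01 and 0.719 FPKM in unexposed livers, also near the triclosan values, and was called against unexposed livers too (difference BaP minus unexposed 1.23, adjusted p = 0.0263). Only kdm6b and XB-GENE-5857146 were called in BaP minus unexposed livers, 0.0317% of tested genes. No gene was called in triclosan minus unexposed livers, where the smallest adjusted p was 0.965 and 270 genes (4.28%) had an unadjusted p below 0.05. jarid2 and ftcd lay between the groups. jarid2 had 17.1, 21.1, 12.8 and 16.5 FPKM in unexposed livers, below every triclosan value and near BaP replicate 3. ftcd had 9.21, 7.68, 9.02 and 5.13 FPKM in unexposed livers, below every triclosan value and overlapping the BaP values.

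Erythroid genes were the list shifted furthest upwards in BaP livers. Frog red cells keep their nucleus and go on holding RNA, so a liver sample carries the transcripts of the blood in it. Of 34 erythroid genes found 23 were tested; 22 lay above 0 and 1 below, with a median of 0.87. An unadjusted p below 0.05 was reached by 11, all higher, where 8.27% of tested genes reached it in that direction. Of the 23, 8 did not overlap between the groups, all higher in BaP livers, where the background is 4.26%. A single member was called. nt5c3a, the nucleotidase that clears pyrimidine nucleotides from maturing red cells, had 12.4, 9.98, 5.73 and 10.4 FPKM in BaP livers, against 3.8, 2.34, 2.35 and 4.24 in triclosan livers. The groups did not overlap, with BaP replicate 3 lowest in its group, and nt5c3a rose by 1.33 ± 0.24 (adjusted p = 0.0451).

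hbd, a beta globin, had 921, 1230.1, 368 and 1271 FPKM in BaP livers, against 216, 95.7, 146 and 306 in triclosan livers. All BaP values were above the triclosan values, with replicate 3 nearest to them, and the difference of 2.28 ± 0.60 was not called (adjusted p = 0.122). hba3, an alpha globin, had 3076, 14303, 3869.6 and 8281 FPKM in BaP livers, against 1177, 571, 1672 and 2479.9 in triclosan livers, without overlap. Its difference of 2.24 ± 0.50 was not called (adjusted p = 0.0629), but it was without BaP replicate 3 (adjusted p = 0.0459). HBA-L5, another globin gene, was the member below 0, with 24.1, 13.7, 14.6 and 6.85 FPKM in BaP livers and 134, 46.3, 19.9 and 19.9 in triclosan livers and overlapping groups. Globin genes are near-copies of each other, and how the counting divided shared reads among them is not known here. The globin genes hba1 and hbg1 were not tested and are in no score or sum below, since their estimates were deposited as too deep in many libraries. hba1 lacked an estimate in all 4 BaP and in 3 of the 4 triclosan libraries, and hbg1 in BaP replicates 1 and 2 and in triclosan replicate 4.

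epor, the erythropoietin receptor, had 15, 25.8, 7.85 and 12 FPKM in BaP livers, against 4.82, 5.09, 4.86 and 5.21 in triclosan livers. The 4 triclosan values were nearly equal and all BaP values were above them; the difference was 1.31 ± 0.29 (adjusted p = 0.0629), and without BaP replicate 3 it was 1.56 and called (adjusted p = 0.0162). alas2, the first enzyme of haem synthesis in red cells, had 570, 815, 488 and 863 FPKM in BaP livers and 481, 245, 445 and 507 in triclosan livers, and the groups overlapped. Of the other defining erythroid genes, slc4a1 overlapped, with 0.933 to 8.39 FPKM in BaP livers and 1.56 to 3.31 in triclosan livers (difference 0.32). ank1 did not overlap, with 46.9 to 107 FPKM in BaP livers and 24.1 to 41.7 in triclosan livers (difference 1.19). Neither was called. mfsd2b, a lipid exporter of mammalian red cells that was not on the list, had 15.4, 23.1, 21.1 and 48 FPKM in BaP livers, against 6.58, 6.99, 3.49 and 10.4 in triclosan livers, without overlap (difference 1.78 ± 0.38, adjusted p = 0.0629). The list score of a library, in which each tested member's log2 value is taken relative to its own 16-library mean and averaged over members, was 0.90, 1.23, -0.06 and 0.66 in BaP livers, against 0.02, -0.51, -0.24 and 0.13 in triclosan livers and -0.50 to -0.03 in unexposed livers. BaP replicate 3 was thus within the range of the triclosan libraries, and the list median without it was 1.19. Summed over the 23 tested members, erythroid FPKM were 9530 to 30813 in BaP livers, 5440 to 13935 in triclosan livers and 5340 to 7598 in unexposed livers. More red cells in a sample and more of these transcripts per red cell cannot be told apart in bulk tissue.

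Genes of hepatocytes and of the plasma proteins they secrete lay mostly on the other side. Of 60 genes on the list of acute phase, complement and coagulation factors 54 were tested; 51 lay below 0 and 3 above, with a median of -0.56, where 47.6% of all tested genes lay below 0. An unadjusted p below 0.05 was reached by 12, all lower in BaP livers, where 6.1% of tested genes reached it in that direction, and none was called. Groups did not overlap in 4 of the 54, all lower, where the background is 2.44%. cpb2, which slows the dissolving of clots, had 86.2, 53.3, 20.8 and 21.7 FPKM in BaP livers and 157, 113, 171 and 52.2 in triclosan livers. Triclosan replicate 4 lay below BaP replicates 1 and 2, so the groups overlapped, and the difference was -1.53 ± 0.48 (adjusted p = 0.174). f2, prothrombin, had 311, 351, 241 and 235 FPKM in BaP livers and 529.6, 512, 593 and 305 in triclosan livers, again overlapping through triclosan replicate 4 (difference -0.75 ± 0.28, adjusted p = 0.265). proz, the clotting cofactor protein Z, had 72.2, 79.2, 88.4 and 61.6 FPKM in BaP livers, against 212, 153, 162 and 129 in triclosan livers. It did not overlap but was not called (-1.10 ± 0.24, adjusted p = 0.0629). HAMP, the iron hormone hepcidin, went the other way with 1034, 1517, 1642 and 105 FPKM in BaP livers and 137, 602, 7.93 and 362 in triclosan livers; its values ranged so widely within each group that the SE of the difference was 1.33.

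The acute phase list score was 0.05, -0.14, -0.49 and -0.66 in BaP livers, against 0.06, 0.26, 0.62 and -0.19 in triclosan livers. BaP replicates 3 and 4 were the lowest, and triclosan replicate 4 lay among the BaP libraries. The list median was -0.67 without triclosan replicate 4 and -0.37 without triclosan replicate 3. The 26 tested hepatocyte markers, which share members with that list, had 23 below 0 and 3 above, with a median of -0.43 and ttr as the only called member. Of the defining hepatocyte genes, fgb (-0.38) and serpinc1 (-0.49) lay below 0. apoa1 lay above it (0.51), with 276 to 666 FPKM in BaP livers and 181 to 441 in triclosan livers. The groups overlapped for each of these genes. cebpa, a transcription factor of mature hepatocytes, had 25.1, 15.2, 23.9 and 8.24 FPKM in BaP livers and 19.4, 40.1, 32.2 and 28.2 in triclosan livers, and the groups overlapped. Summed hepatocyte marker FPKM were 9547 to 17172 in BaP livers, 11190 to 23215 in triclosan livers and 11747 to 25377 in unexposed livers. The erythroid score was highest in BaP replicates 1 and 2, and the acute phase score was lowest in BaP replicates 3 and 4, so the shifts were not largest in the same libraries; the part of blood content, ribosomal RNA or mitochondrial RNA in these differences was not tested.

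**Figure D3:**
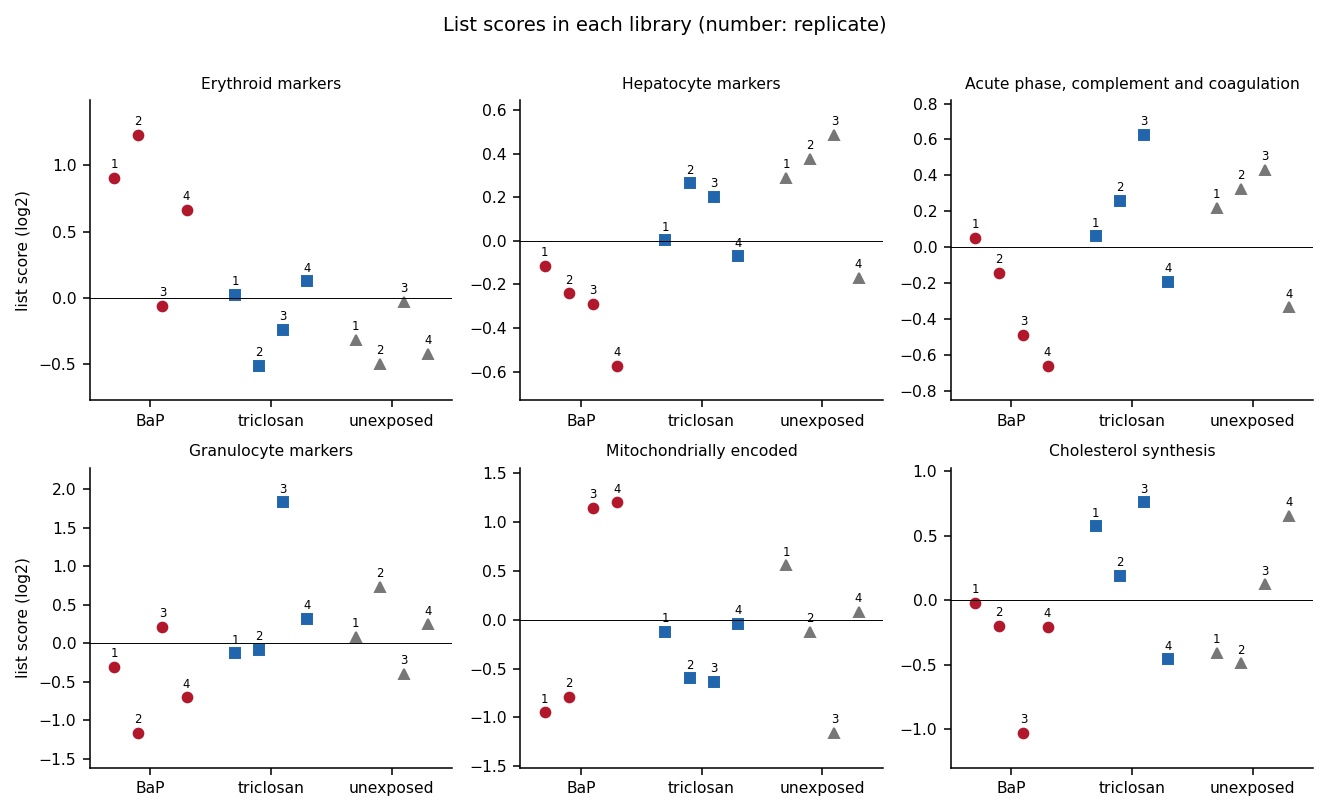
List score of each library (log2 units, mean over the tested members relative to the 16 libraries) for 6 gene lists, with points for BaP, triclosan and unexposed libraries and the replicate number above each. Erythroid scores are high in BaP replicates 1, 2 and 4, mitochondrial scores are high in BaP replicates 3 and 4, and the granulocyte score is high in triclosan replicate 3.

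Cholesterol synthesis and lipoprotein genes were mostly lower in BaP livers without any passing the test. Of 16 tested cholesterol synthesis genes 14 lay below 0 and 2 above, with a median of -0.64. MSMO1, which removes methyl groups from sterols, had 5.04, 6.89, 2.51 and 9.73 FPKM in BaP livers and 16.8, 20.3, 60.2 and 6.8 in triclosan livers, with triclosan replicate 3 highest and triclosan replicate 4 within the BaP range (difference -1.66 ± 0.87, adjusted p = 0.405). ldlr, the receptor that takes up low density lipoprotein, had 6.76, 6.2, 5.48 and 2.67 FPKM in BaP livers and 15.8, 17, 9.63 and 5.5 in triclosan livers (difference -0.99 ± 0.43, adjusted p = 0.308). The list score was -0.02, -0.20, -1.03 and -0.21 in BaP livers, against 0.57, 0.19, 0.76 and -0.46 in triclosan livers. The groups overlapped through triclosan replicate 4, and the list median was -0.35 without BaP replicate 3 and -0.91 without triclosan replicate 4. Of 17 tested lipoprotein genes 12 lay below 0 and 5 above, with a median of -0.45 and none called. apom, a lipoprotein component that carries sphingolipid, had 72.1 to 159 FPKM in BaP livers and 114 to 354 in triclosan livers (difference -1.12 ± 0.37, adjusted p = 0.205).

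Genes on the list of the AhR pathway and its targets lay mostly lower, not higher, in BaP livers, and none passed the test. cyp1a1, the classical AhR target that oxidises BaP, had 21.6, 35.2, 30 and 13.2 FPKM in BaP livers, against 29.1, 25.1, 55.7 and 36.8 in triclosan livers and 45.3, 31.9, 47.2 and 36 in unexposed livers. The groups overlapped, with the highest value in triclosan replicate 3 and the lowest in BaP replicate 4. The difference was -0.55 ± 0.39 (adjusted p = 0.533), with a 95% interval of -1.39 to 0.28. cyp1b1 had a listed value of 0 in each of the 8 libraries, while ahr, ahrr and cyp1c1 were too low to be tested, with at most 0.107, 0.0741 and 0.316 FPKM in any of the 8. nqo1, a quinone reductase and target of both AhR and NRF2, had 1.26, 0.331, 0.814 and 0.818 FPKM in BaP livers and 3.66, 2.05, 2.47 and 0.914 in triclosan livers (difference -0.81 ± 0.32, adjusted p = 0.281). Of the 8 tested genes on the AhR list 6 lay below 0 and 2 above, with a median of -0.31 and none called. The list mixes targets with other genes of the pathway, so its median is not a measure of the targets alone. tiparp, another target, had overlapping groups and a difference of -0.16 ± 0.23 (adjusted p = 0.785).

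No other gene on the lists for foreign compounds passed the test, where 0.301% of all tested genes did. Of 33 tested receptors and cytochrome P450 enzymes 21 lay below 0 and 12 above, with a median of -0.08. NR1I3, the receptor that induces enzymes for phenobarbital-like compounds in mammals, had 1.31, 4.45, 9.01 and 1.43 FPKM in BaP livers and 2.64, 3.73, 2.49 and 2.34 in triclosan livers, and its difference of 0.15 ± 0.42 became -0.27 without BaP replicate 3. nr1i2, the pregnane X receptor, stayed at or below 0.321 FPKM in all 8 libraries and was not tested. cyp3a4, a broad drug-oxidising enzyme, had 0.624 to 3.22 FPKM in BaP livers and 1.32 to 7.87 in triclosan livers, with a 95% interval of the difference of -1.36 to 0.22. cyp4f22, a fatty acid hydroxylase, had 15.6, 11.7, 8.87 and 30.5 FPKM in BaP livers and 8.45, 5.12, 12.8 and 6.86 in triclosan livers (difference 0.85 ± 0.38, adjusted p = 0.324). Of 18 tested conjugating enzymes 11 lay below 0 and 7 above, with a median of -0.08. Groups did not overlap in 3 of them, all lower in BaP livers, where the background is 2.44%. These were sult6b1, sult1c2 and gstk1, and none was called. sult6b1, a sulphotransferase, had 2.59, 2.88, 2.12 and 2.31 FPKM in BaP livers, against 8.16, 4.78, 3.9 and 3.99 in triclosan livers and 3.0, 3.0, 2.82 and 1.51 in unexposed livers. Its BaP and triclosan values did not overlap, and the difference of -0.79 ± 0.22 was not called (adjusted p = 0.143). ugt1a6, which attaches glucuronic acid to phenols, had 4.96 to 8.31 FPKM in BaP livers and 6.66 to 10.3 in triclosan livers, with a 95% interval of the difference of -0.61 to 0.16. Among 14 tested ABC transporters 11 lay above 0 and 3 below, with a median of 0.15 and none called. An unadjusted p below 0.05 was reached by 2 members higher (background 8.27%) and 2 lower (background 6.1%). abcb6, a porphyrin transporter, had 1.85 to 3.73 FPKM in BaP livers and 0.915 to 1.92 in triclosan livers (adjusted p = 0.208), and abca2, a lipid transporter, had 2.27 to 3.34 FPKM in BaP livers and 1.32 to 2.42 in triclosan livers (adjusted p = 0.30). Both overlapped and lay above 0. The exporter abcc5 had 9.78, 8.29, 7.96 and 6.78 FPKM in BaP livers and 24.7, 21.3, 9.65 and 17.2 in triclosan livers, overlapping only through triclosan replicate 3 (difference -1.0 ± 0.27, adjusted p = 0.13). The bile salt pump abcb11 had 0.609 to 1.02 FPKM in BaP livers and 0.958 to 3.39 in triclosan livers (difference -0.82 ± 0.26, adjusted p = 0.195). slco1b3, an uptake carrier for bile acids and organic anions, had 43.5, 59.4, 43.1 and 66 FPKM in BaP livers, against 18.6, 19.1, 16.4 and 27.3 in triclosan livers; the groups did not overlap, but the difference of 1.34 ± 0.35 was not called (adjusted p = 0.108).

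**Figure D4:**
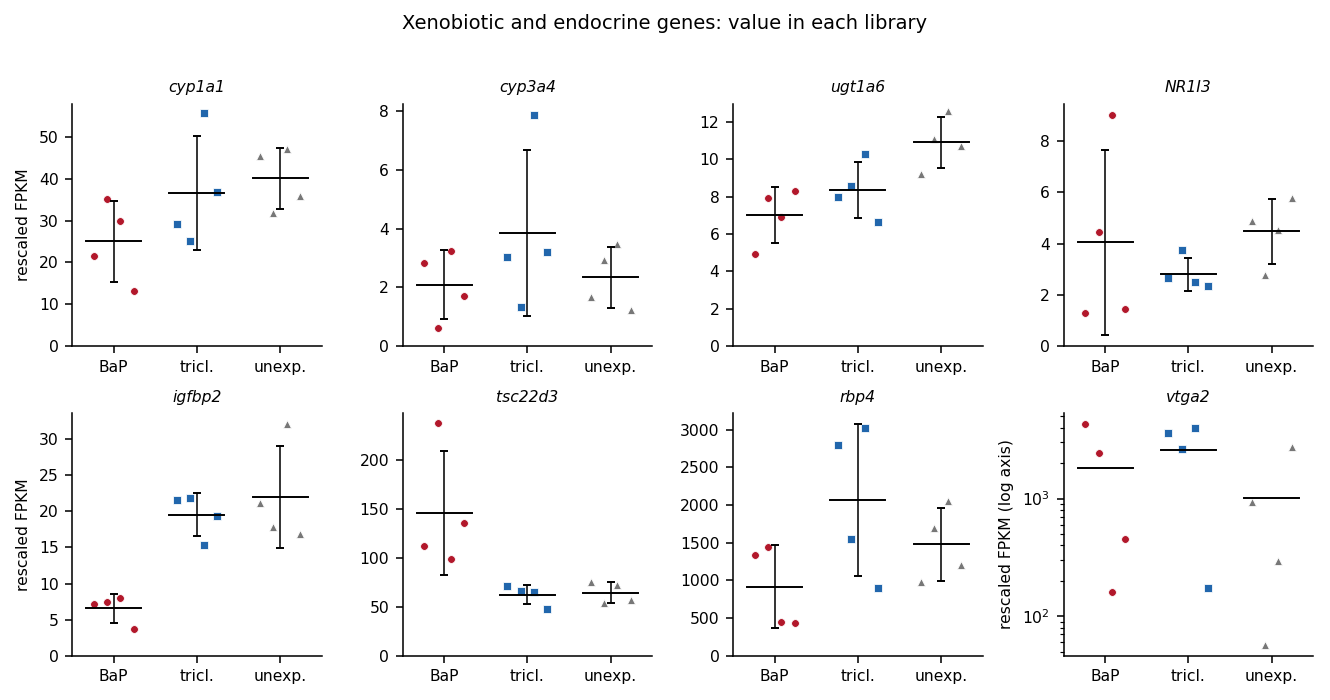
Rescaled FPKM of 8 xenobiotic and endocrine genes in each BaP, triclosan (tricl.) and unexposed (unexp.) library; points are libraries, lines and bars are the mean ± SD of 4 (for vtga2 the axis is logarithmic and the line is the mean alone). cyp1a1 overlaps among all 3 groups, while igfbp2 is lower and tsc22d3 higher in all BaP libraries than in all triclosan libraries.

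Endocrine genes other than ttr did not pass the test, although some groups did not overlap. The thyroid axis list had 8 tested genes, 4 above and 4 below 0, with ttr called. The thyroid hormone receptors THRA and thrb stayed at or below 0.126 FPKM in all 8 libraries and were not tested. Of 15 tested genes of the insulin and IGF axis 4 lay above 0 and 11 below, with a median of -0.26 and none called. Against a background of 4.26% higher and 2.44% lower, groups did not overlap in 3 that were higher and 1 that was lower in BaP livers. The lower one was igfbp2. igfbp2, a plasma binding protein of insulin-like growth factors, had 7.09, 7.49, 7.99 and 3.65 FPKM in BaP livers, against 21.6, 21.8, 15.4 and 19.4 in triclosan livers. The groups did not overlap, and the difference of -1.48 ± 0.36 was not called (adjusted p = 0.0932). The 3 higher ones were tsc22d3, sgk1 and grb10. tsc22d3, a glucocorticoid-induced regulator, had 112, 239, 98.5 and 136 FPKM in BaP livers, against 71.1, 66.4, 64.7 and 47.9 in triclosan livers, without overlap. Its difference of 1.14 ± 0.26 was not called (adjusted p = 0.0653); without BaP replicate 3 it was (adjusted p = 0.0356). sgk1, a kinase downstream of insulin, had 1.46 to 5.87 FPKM in BaP livers and 0.88 to 1.37 in triclosan livers (adjusted p = 0.187), and grb10, an adaptor that dampens insulin receptor signals, had 2.29 to 3.33 FPKM in BaP livers and 1.4 to 2.21 in triclosan livers (adjusted p = 0.429). igf1 had 1.23 to 4.83 FPKM in BaP livers and 2.26 to 7.16 in triclosan livers, with a 95% interval of the difference of -1.47 to 0.93. vtga2, a vitellogenin that oestrogen induces in female liver, had 4260.1, 2439.6, 159 and 452 FPKM in BaP livers and 3582, 2661, 3994 and 174 in triclosan livers. It varied widely within each group, and the SE of its difference was 1.34. The oestrogen receptor esr1 had 0.757 to 1.32 FPKM in BaP livers and 0.864 to 1.7 in triclosan livers (95% interval of the difference -0.60 to 0.24).

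Glucose genes also varied between libraries of the same group. GCKR, the regulator of glucokinase, had 28.3, 19.4, 169 and 64 FPKM in BaP livers and 179.7, 129, 47.5 and 144 in triclosan livers. BaP replicate 3 was high in its group and triclosan replicate 3 low in its own, as for jarid2 and kdm7a, and the difference of -1.16 ± 0.54 was not called (adjusted p = 0.346). G6PC and g6pc, a pair of genes for the phosphatase that releases glucose, whose symbols differ only in case, had 4.16, 14.4, 4.89 and 108 and 4.79, 14.2, 3.99 and 21.2 FPKM in BaP livers and 15.3, 4.65, 4.98 and 8.86 and 35.3, 7.46, 15.7 and 16.4 in triclosan livers. Neither separated the groups (adjusted p = 0.66 and 0.579). pck2, the mitochondrial enzyme that makes phosphoenolpyruvate, had 54.7, 55.2, 58 and 75.7 FPKM in BaP livers, against 110.4, 102, 99.2 and 113 in triclosan livers; the groups did not overlap and the difference was -0.80 ± 0.28 (adjusted p = 0.237). Of 27 tested glucose genes 19 lay below 0 and 8 above, with a median of -0.23 and none called.

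Lists of general cell functions held no called gene. With 0.301% of all tested genes called, this is no result about their members. Of 28 tested endoplasmic reticulum (ER) chaperones and unfolded protein response genes 25 lay below 0 and 3 above, with a median of -0.21. fkbp11, an ER folding enzyme, had 44.9, 94.5, 126 and 61.7 FPKM in BaP livers, against 188, 173, 255 and 180.3 in triclosan livers, without overlap (difference -1.36 ± 0.37, adjusted p = 0.13). The chaperone hspa5 had 0.849 to 3.32 FPKM in BaP livers and 2.36 to 6.62 in triclosan livers, against 1.13 to 133 in unexposed livers, where its values were most spread. Of 26 tested p53 and DNA damage genes 19 lay above 0 and 7 below, with a median of 0.22. The death receptor fas, a p53 target, had 5.6, 8.57, 3.61 and 7.32 FPKM in BaP livers and 2.5, 2.28, 2.65 and 3.93 in triclosan livers; BaP replicate 3 overlapped triclosan replicate 4, and the difference of 0.89 ± 0.21 was not called (adjusted p = 0.0886) but was without BaP replicate 3 (adjusted p = 0.0162). Of 42 tested cell cycle and DNA replication genes 31 lay above 0 and 11 below, with a median of 0.17. dhfr, which regenerates folate for DNA synthesis, lay below 0, with 11.6, 16.9, 10.2 and 14.3 FPKM in BaP livers, against 36.9, 25.6, 29.4 and 18.1 in triclosan livers, and was not called (adjusted p = 0.22).

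Of 78 tested ribosomal protein genes 49 lay below 0 and 29 above, with a median of -0.09; rps7 had 6672, 4113, 5122 and 3163 FPKM in BaP livers, against 8359.8, 9456, 8958 and 6709.7 in triclosan livers, without overlap (difference -0.85 ± 0.22, adjusted p = 0.108). Of 78 tested nuclear respiratory chain genes 51 lay below 0, with a median of -0.16. Of 10 tested mitochondrially encoded genes 9 lay above 0, with a median of 0.56, which was 0.22 without BaP replicate 3 and 0.94 without BaP replicate 1. COX1 was not tested, and COX3 was fitted without BaP replicate 4. ATP6, a subunit of the ATP synthase, shows that split with 10870, 11082, 50075 and 67664 FPKM in BaP livers, against 16513, 12622, 9754 and 16494 in triclosan livers. The member below 0 was ND6, with 50.1 to 63.4 FPKM in BaP livers and 70.7 to 86.7 in triclosan livers. ND6 alone of the tested members had groups that did not overlap, and it was not called (difference -0.50 ± 0.16, adjusted p = 0.191). The 5 most abundant tested genes were COX2, a subunit of cytochrome oxidase, and the ribosomal protein genes rplp1, rpl37, rpl38 and rpl35. Their FPKM were 32572 to 171230, 31092 to 61696, 27326 to 67026, 24965 to 68401 and 22876 to 64430 in BaP livers, and 27779 to 54784, 46110 to 49334, 40298 to 46997, 38035 to 46674 and 34289 to 44931 in triclosan livers. The groups overlapped for all 5.

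Of 14 granulocyte markers found 5 were tested, and among the 8 libraries these were highest in triclosan replicate 3. All 5 tested granulocyte markers lay below 0, with a median of -1.14, which was -0.56 without triclosan replicate 3. The untested ones were low in most libraries and went both ways. epx, for example, was higher on average in triclosan livers, while hdc was higher in all BaP than in all triclosan libraries. mpo, the peroxidase of neutrophil granules, had 2.89, 0.341, 3.9 and 1.12 FPKM in BaP livers and 4.35, 3.7, 20.6 and 6.34 in triclosan livers (difference -1.55 ± 0.46, adjusted p = 0.158). The granulocyte list score was -0.31, -1.16, 0.21 and -0.70 in BaP livers, against -0.13, -0.09, 1.83 and 0.32 in triclosan livers, and the summed FPKM of its genes were 5.59 to 38.4 in BaP livers and 20.8 to 149.9 in triclosan livers. The 8 tested macrophage markers split 4 and 4 around 0, with a median of -0.06, and 4 of 6 lymphocyte markers lay above 0, with a median of 0.26. All 11 tested bile duct markers lay below 0, with a median of -0.64 and none called; the defining marker krt19 had 164 to 298 FPKM in BaP livers and 174 to 282 in triclosan livers. No gene of the pigment cell or ovary lists passed the filter.

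**Figure D5:**
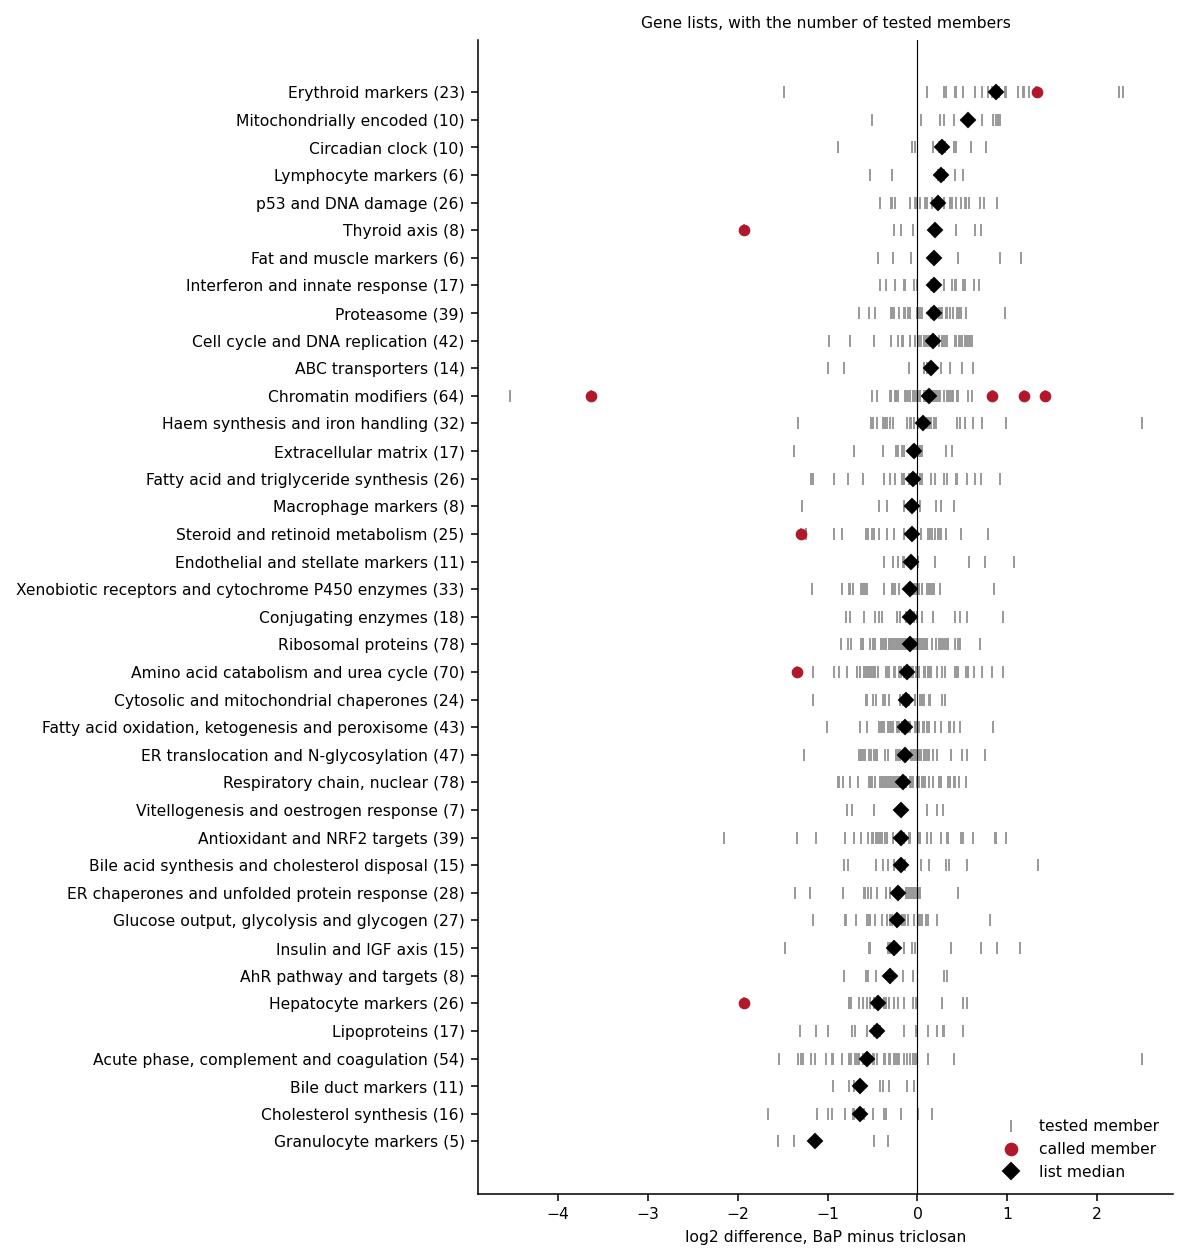
Log2 difference of BaP minus triclosan livers for every tested member (ticks) of the gene lists with at least 5 tested members, with the list median as a diamond and called members as red points; lists run from the highest to the lowest median and the number of tested members is in brackets. Erythroid markers have the highest median (0.87) and granulocyte markers the lowest (-1.14), and a called member stands in lists of either kind, such as nt5c3a among the erythroid markers and ttr among the hepatocyte markers (-0.43).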

How the data were processed

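Per the labels' protocols, RNA from each liver was made into a stranded mRNA library and sequenced as 75 bp reads. The deposited tables hold Cufflinks gene FPKM with a status and a confidence interval; the submitters' processing notes name Cufflinks 0.0.7, TopHat, TopHat2 0.6, Bowtie 0.12.7 and Trimmomatic 0.32.1, with no role or order. No genome build is named in the sources used here, so no coordinates are printed. No sequences are printed, since no sequence table was at hand.

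Estimates with a status other than OK (54 estimates of 10 genes) were treated as missing. Each library was rescaled by median of ratios, using the 3959 genes that reached 1 FPKM in every one of the 16 libraries (0.80 to 1.20 in BaP and 0.95 to 1.12 in triclosan libraries). Genes tested reached 1 FPKM in 4 or more of the 8 libraries, with 3 or more usable values per group. Values were analysed as log2(rescaled FPKM + 1) in R 4.3.3 by limma 3.58.1, with eBayes set to trend and robust. Each of the 4 groups had its mean, fitted over all 16 libraries with 12 residual degrees of freedom; tests were two-sided, with Benjamini-Hochberg adjustment over the genes tested. The median SE was 0.24. Read counts are not in the tables: depth was read from the confidence intervals, and a gene at 0 is only listed at 0.

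Called genes with a unique symbol, groups that do not overlap and a group mean of at least 5 FPKM were named, up to 12 per direction. This left fewer than 20, so those with the next smallest p were added; added genes, members of lists (up to 4 each), genes chosen for the exposures and the 5 most abundant genes are given with their test result. Lists were matched by symbol, and RefSeq gave names only. The comparison, lists and genes were chosen with earlier results of these data known. Alternatives changed the pseudocount, rescaling, filter, fit and libraries. A single called gene is not reported here.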

Additional observations from a re-analysis of the deposited data

Results flagged for a closer look

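Among the called genes, the genes added to them and the genes chosen for the exposures, 94 groups of 4 libraries were checked. A library far from the other 3 was found in 8. For normally distributed values chance alone gives this in about 1 of 20 groups. The check used FPKM without logs, and each library found was the highest of its 4, so that rate may not hold here. nfix was at 0.674 FPKM in BaP replicate 2, above the other BaP libraries and still below every triclosan library. hpgd was at 36.7 FPKM in BaP replicate 2, above the other 3 BaP libraries at 13.3 to 15.3 FPKM. jarid2 was at 14.6 FPKM and ftcd at 8.69 FPKM in BaP replicate 3, each the highest of its group and nearest to the triclosan libraries. ptpn2 was at 13.5 FPKM in BaP replicate 4, against 6.51 to 7.48 FPKM in the other BaP libraries. G6PC was at 108.2 FPKM in BaP replicate 4, against 4.16 to 14.4 FPKM in the other BaP libraries. In the triclosan group, dek was at 15.1 FPKM in replicate 4, against 12.7 to 13.1 FPKM in the others. igf1 was at 7.16 FPKM in triclosan replicate 1, against 2.26 to 2.73 FPKM in the other triclosan libraries.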

How the results depend on the processing

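Against 19 calls (12 higher and 7 lower in BaP livers), the count depended on the settings. All 19 genes kept their direction under every setting in which they were tested. Their groups did not overlap, so most of these settings could not have reversed it. A pseudocount of 0.1 gave 3 calls (1 higher, 2 lower) and a pseudocount of 5 gave 25 (17 higher). Without rescaling 2 genes were called (1 higher, 1 lower), and with upper quartile rescaling 13 (6 higher, 7 lower); this rescaling moved the median over all genes to -0.06. Without a filter 7 of 15788 genes were called (5 higher, 2 lower), and with the filter over all 16 libraries 6 of 7021 (4 higher, 2 lower). With 1 FPKM in all 8 libraries 22 of 4548 were called, 14 of the 19 among them. nfix, jarid2, kdm6b, susd1 and ENSXETG00000000637 did not pass that filter and were not tested under it. The fit over the 8 libraries alone called 1 gene that was lower, 0 that were higher and none of the 19; 734 genes had an unadjusted p below 0.05. eBayes without trend and robust gave 28 calls (17 higher, 11 lower), and array weights 67 (43 higher, 24 lower), each with all 19 among them. Leaving out 1 library at a time gave 1 to 60 calls, 0 to 41 higher and 1 to 19 lower. Without mixture replicate 4, a fit added after the data were seen, 22 genes were called. The cause of these shifts was not tested.

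The replicate numbers are shared by the groups, but same-numbered BaP and triclosan libraries did not deviate together (correlations -0.05, -0.10, -0.24 and 0.13), so the numbers were not taken as pairs. The labels do not say what the numbers stand for, and whether same-numbered libraries shared a batch was not tested. With the replicate number as a block, 2 genes were called (1 higher, 1 lower).

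Some differences that were not called changed sign when 1 library was left out. G6PC ranged from -0.15 to 1.32, vtga2 from -1.85 to 0.060, NR1I3 from -0.27 to 0.44 and igf1 from -0.50 to 0.035. With 4 libraries a group and no read counts, low genes such as nfix and the transcripts near 1 FPKM have counting errors that are not given here. The deposited confidence intervals of single genes were used for depth alone.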

Other observations

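Some genes outside the lists and the naming rule stood out once their values were seen, and none of them was called. CTSK, the collagen-degrading protease cathepsin K, had 0.573, 0.158, 2.73 and 0.865 FPKM in BaP livers, against 6.89, 4.31, 6.09 and 17.7 in triclosan livers and 6.26, 4.27, 3.95 and 5.57 in unexposed livers. Every BaP value was below every triclosan and unexposed value, and the difference from triclosan was -2.19 ± 0.50 (adjusted p = 0.0727). elf5, an epithelial transcription factor, had 0.105, 0.162, 1.26 and 2.06 FPKM in BaP livers, against 20.3, 2.31, 3.46 and 3.93 in triclosan livers, without overlap (difference -1.86 ± 0.54, adjusted p = 0.151); triclosan replicate 1 was far above the others. mxd4, a repressor that opposes MYC, had 23.6, 26.3, 83.7 and 194 FPKM in BaP livers, against 18.4, 18.6, 7.98 and 15.4 in triclosan livers, also without overlap, with BaP replicates 3 and 4 the highest (difference 1.91 ± 0.55, adjusted p = 0.151). ENSXETG00000030073, which has no symbol, had 21, 27, 17.8 and 21.7 FPKM in BaP livers, against 4.75, 2.99, 0.203 and 5.15 in triclosan livers, the largest upward difference of all tested genes (2.65 ± 0.54, adjusted p = 0.0502).

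Further genes, picked after their values were seen, were highest in triclosan replicate 3; mmp9 is on the granulocyte list, cybb on the macrophage list and txn on the antioxidant list, while prtn3 is on none. prtn3, a serine protease of neutrophil granules, had 8.8, 1.27, 31.5 and 7.31 FPKM in BaP livers and 21.6, 13.2, 259 and 45.7 in triclosan livers. cybb, the catalytic subunit of the phagocyte oxidase, had 2.49, 0.453, 4.03 and 1.63 FPKM in BaP livers and 2.9, 3.43, 19.6 and 5.64 in triclosan livers. mmp9, a matrix protease of neutrophils, had 8.65, 2.17, 27.4 and 9.51 FPKM in BaP livers and 11.4, 11.6, 101 and 24.6 in triclosan livers. txn, the small redox protein thioredoxin, had 5.24, 1.67, 21 and 3.02 FPKM in BaP livers and 11.3, 15.5, 131 and 20.4 in triclosan livers. In all 4 genes triclosan replicate 3 had the highest value of the 8 libraries, and among the BaP libraries replicate 3 was highest and replicate 2 lowest. The clock gene per3 had 10.7, 12.3, 15.3 and 15.3 FPKM in BaP livers and 38.7, 33, 14.3 and 22.3 in triclosan livers, where replicate 3 was the lowest triclosan library, as for jarid2, kdm7a, GCKR and abcc5. Of 10 tested genes on the clock list 7 lay above 0 and 3 below, with a median of 0.28 and none called. On that list cry2 was higher without overlap, with 2.95 to 5.04 FPKM in BaP livers and 1.33 to 2.25 in triclosan livers (adjusted p = 0.237).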
